A study of Homo sapiens with 28 samples.

Results

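The genes described here are 111 of the 23533 genes measured by RNA sequencing in EPC2 cells, a human line of immortalised keratinocytes from the esophagus. They had a lower level with IL-13 and a higher level with vitamin D, each set against untreated cells. The genes were chosen by these same RNA values: a gene was taken when its untreated level was at least 1 RPKM (reads scaled to transcript length and library size), its IL-13 over untreated RPKM ratio was at most 0.77 and its vitamin D over untreated RPKM ratio was at least 1.3. Of the 11249 genes at 1 RPKM or more in untreated cells, 120 met both ratios. IVL, DHRS9 and the SERPINB, KLK, KRT, SPRR, LCE and S100A families were left out, which removed 9 genes (IVL, DHRS9, KLK6, KLK13, KRT15, KRT78, KRT80, SERPINB1 and SERPINB9). The cells, plated densely 1 day earlier, received 100 ng/ml IL-13, 100 nM vitamin D or both agents together, or were left without either agent, for 6 h. RNA was sequenced from 3 samples of each of these 4 groups. Binding of VDR with and without vitamin D, binding of STAT6 with and without IL-13, and 3 histone marks in all 4 treatments were profiled by ChIP-seq (chromatin immunoprecipitation and sequencing), with 1 library per condition. The form of vitamin D is not named in the labels. EPC2 is 1 line grown in culture, so stratified tissue and other esophageal cells are not represented.

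IL-13 is a type 2 cytokine that acts on the esophageal lining in eosinophilic esophagitis. It binds a receptor that holds the IL-4 receptor alpha chain and activates the transcription factor STAT6, and in squamous epithelium it is known to lower genes of terminal differentiation. Vitamin D in its active form binds the nuclear receptor VDR, which pairs with RXR on DNA and is known in keratinocytes to raise genes of differentiation and of the skin barrier.

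The deposited RNA tables used here held 1 RPKM value per group, so the spread between the 3 samples of a group could not be computed, and neither could the read depth. Standard errors given for log2 changes were derived from the deposited fold change and p-value. The labels do not say that the 3 samples were separate cultures, so the spread behind the p-values may be technical. The cells carried epithelial genes at high level: the basal keratin gene KRT5 had 10538 RPKM with IL-13, 9935 RPKM with vitamin D, 9265 RPKM with both and 10444 RPKM untreated. The endothelial gene PECAM1 was at or below 0.00217 RPKM in every group. The leukocyte gene PTPRC had 0.00214 RPKM with IL-13 and was listed at 0 in the other groups. Not every marker of another cell type was absent. The fibroblast gene COL1A1 had 9.84 RPKM with IL-13, 9.64 RPKM with vitamin D, 5.84 RPKM with both and 15.2 RPKM untreated. Of 10 fibroblast markers 9 stayed under 1 RPKM in every group, as did 13 of 14 leukocyte markers. The leukocyte markers still summed to 51.4 RPKM untreated. TP63, the master regulator of basal squamous cells, moved against the described genes, and its part in their values was not tested. It had 72.3 RPKM with IL-13, 37.6 RPKM with vitamin D, 58.3 RPKM with both and 50.7 RPKM untreated. The treatments were visible in their best known responders. CYP24A1, the vitamin D degrading enzyme, had 560 RPKM with vitamin D and 463 RPKM with both, against 0.476 RPKM untreated. CAPN14, an esophageal calpain induced by IL-13, had 358 RPKM with IL-13 and 463 RPKM with both, against 10.2 RPKM untreated. Of the factors profiled, VDR had 11.2 RPKM with IL-13, 7.62 RPKM with vitamin D, 9.74 RPKM with both and 9.12 RPKM untreated, and STAT6 lay between 24.5 and 30.2 RPKM throughout.

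Untreated levels of the 111 genes ran from 1.05 to 701 RPKM with a median of 6.48 RPKM, against a median of 9.04 RPKM over all 11249 genes at 1 RPKM or more. Among them, 50 lay under 5 RPKM and 18 lay at 50 RPKM or above. The IL-13 over untreated ratio had a median of 0.658 and ran from 0.313 for PSCA to 0.768 for ARID3B. The vitamin D over untreated ratio had a median of 1.56 and ran from 1.301 for CCBP2 to 11.1 for FOS, with the next highest at 3.51 for C12orf36. These ratios chose the genes and are given as a description. In the authors' deposited tables, 107 of the 111 had an adjusted p of 0.05 or less for a lower level with IL-13, where 14.0% of all tested genes were called lower, and 109 had one for a higher level with vitamin D, where 17.5% of all tested genes were called higher. Since the selection used these contrasts, nothing is read from those counts. In the authors' deposited tables LRRC26, MIR614, ARHGAP8 and F12 missed 0.05 in at least 1 of the contrasts, with adjusted p between 0.122 and 0.486 for IL-13.

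The ratio limits cut through a continuous range. ARID3B and RIN3, both at 0.768, were the nearest genes inside the IL-13 limit, and VASP and RGNEF, both at 0.771, were the nearest outside. CCBP2 and MALL, both at 1.301, were nearest inside the vitamin D limit, with SPOCD1 at 1.295 and TRPV4 at 1.29 just outside. F12 at 1.05 RPKM and CDC20 at 1.06 RPKM stood just above the untreated floor, and KCNC4 at 0.961 RPKM and PLA2G4D at 0.952 RPKM just below it. Chromosome 1 held 22 of the genes (19.8%, against 10.6% of all genes at 1 RPKM or more) and chromosome 19 held 14 (12.6%, against 7.18%). Only 4 pairs had starts within 100 kb of each other in hg19: PADI2 and PADI1 on chromosome 1 at 85.7 kb, FUT6 and FUT3 on chromosome 19 at 11.7 kb, RGS14 and F12 on chromosome 5 at 51.7 kb, and HR and REEP4 on chromosome 8 at 10.9 kb.

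**Figure D1:**
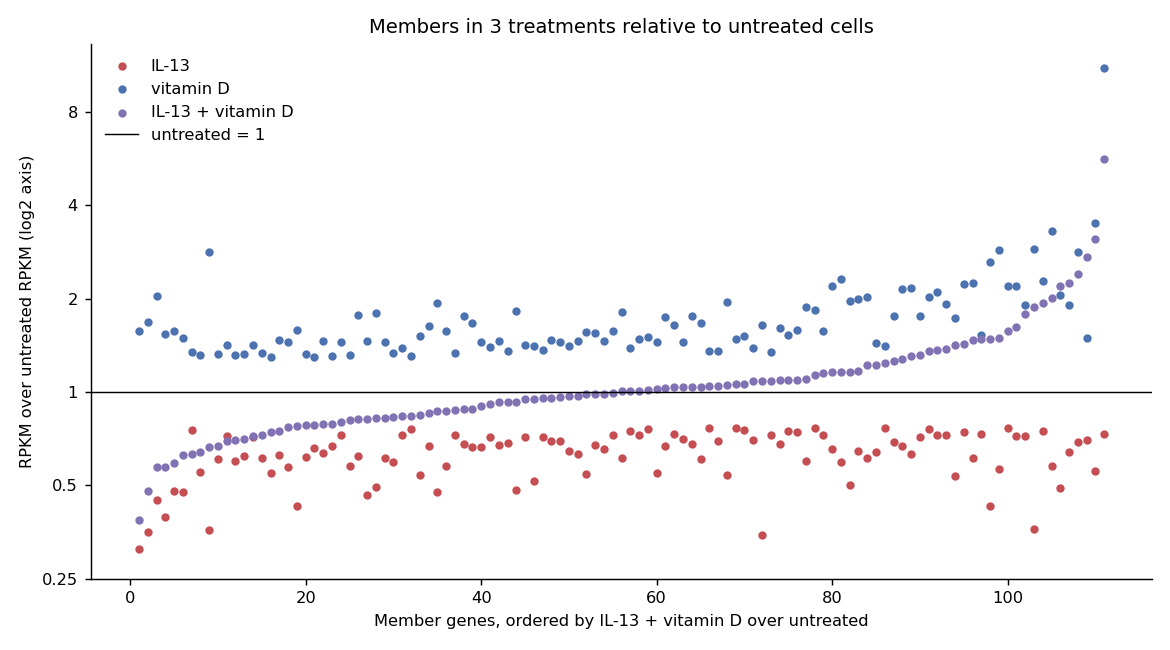
Each of the 111 genes is plotted at 1 place on the horizontal axis, ordered by its combination over untreated ratio, against RPKM over untreated RPKM on a log2 axis for IL-13, vitamin D and IL-13 plus vitamin D, with untreated cells as the line at 1. The IL-13 points lie at 0.768 or below and the vitamin D points at 1.301 or above because the genes were chosen that way, while the combination runs from 0.387 for PSCA to 5.65 for FOS.

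VDR binding was measured independently of the RNA values that chose the genes. With vitamin D, 77 of the 111 genes (69.4%, exact 95% binomial interval 59.9 to 77.8%) had a VDR summit within 20 kb of their start. Among the 11138 other genes at 1 RPKM or more the share was 25.2% (24.4 to 26.1%). The interval of the described genes overlapped that of 460 genes raised by vitamin D and not lowered by IL-13, 60.9% (56.2 to 65.4%). It lay above that of 529 genes lowered by IL-13 and not raised by vitamin D, 33.3% (29.3 to 37.5%), and above the 26.8% of 473 genes raised by IL-13. The comparison groups were drawn with the same ratio limits. Genes raised by vitamin D and not lowered by IL-13 can also be raised by IL-13, as CAPN14 was, so those sets overlap. The median distance from start to nearest VDR summit was 7.83 kb for the described genes, 11.7 kb for the genes raised by vitamin D and not lowered by IL-13, and 65.1 kb for the other genes. These intervals cover counting error only, since each library was a single one.

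For STAT6 the share of the described genes with a summit within 20 kb was near the background. With IL-13, 5 of the 111 genes (4.50%, exact 95% interval 1.48 to 10.2%) had a STAT6 summit within 20 kb, against 7.48% (6.997 to 7.98%) of the other genes, a share inside that interval, and 26.6% (22.7 to 30.9%) of the genes raised by IL-13. The genes lowered by IL-13 and not raised by vitamin D stood at 5.48% (3.70 to 7.78%), within the interval of the described genes. The 5 genes were ATP2B4, C20orf195, CDC20, ID1 and TINAGL1, and each of these also had a VDR summit within 20 kb. Within 100 kb the order was the other way, with 34.2% (25.5 to 43.8%) of the described genes against 24.9% of the other genes. At that distance the genes raised by vitamin D and not lowered by IL-13 stood at 44.1% (39.5 to 48.8%). Those lowered by IL-13 and not raised by vitamin D stood at 21.4% (17.9 to 25.1%). The order within 100 kb depended on weaker summits. With only summits of -log10 q of at least 10 by the authors' peak caller, it was 6.31% (2.57 to 12.6%) of the described genes. The other genes then stood at 10.1%. No STAT6 summit of untreated cells lay within 20 kb of a described gene. The STAT6 library held 6646 summits with IL-13 and 1494 untreated, and the VDR library 11515 with vitamin D and 2185 untreated.

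**Figure D2:**
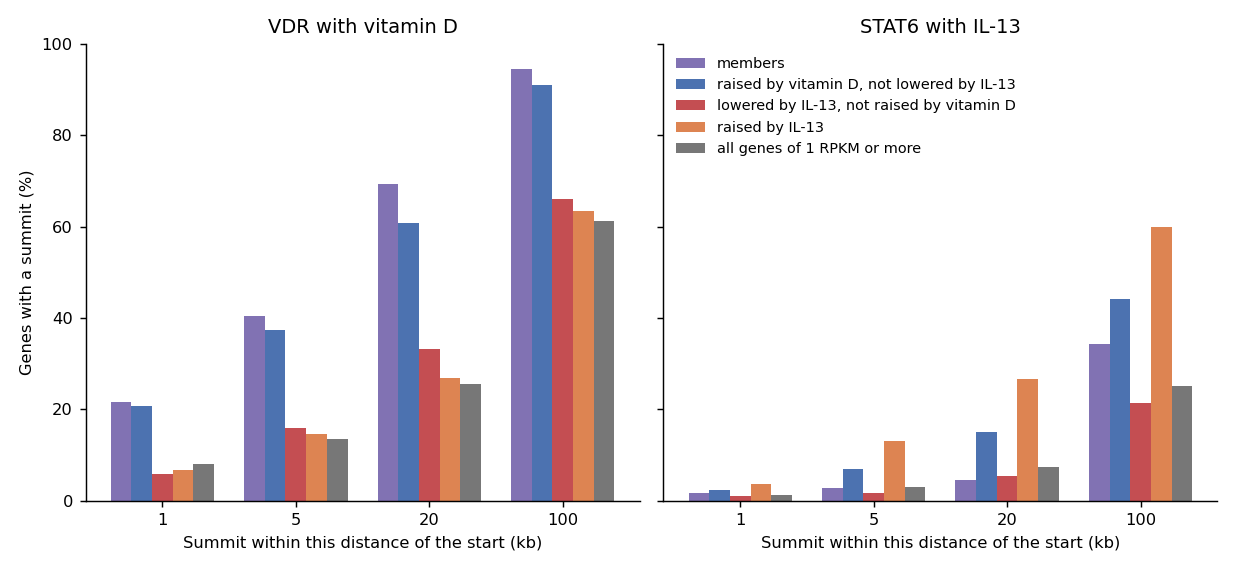
Bars give the percent of genes with a VDR summit in vitamin D treated cells (left) or a STAT6 summit in IL-13 treated cells (right) within 1, 5, 20 or 100 kb of the gene start, for the 111 members and 4 other sets. For VDR the members (69.4% at 20 kb) stand beside the genes raised by vitamin D and not lowered by IL-13 (60.9%) and above the other sets, and for STAT6 they stand at 4.50% where genes raised by IL-13 reach 26.6%.

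The VDR summits near the described genes were of ordinary strength for their library. The nearest summits had a median fold enrichment at percentile 52.3 of all VDR summits with vitamin D, by the authors' peak caller. In the authors' annotation 31 of the 77 lay in a promoter, 21 upstream, 16 in an intron, 5 in an exon and 4 between genes, and by position 39 lay before the gene start and 38 at or after it. The strongest was at ETNK2, an ethanolamine kinase gene, 2616 bases before the start, with a fold enrichment of 70.3. CLCF1, a cytokine gene of the IL-6 family, had one of 50.3 at 188 bases before the start. Some of this binding was already seen in untreated cells, where 31 of the 111 genes (27.9%) had a VDR summit within 20 kb, against 5.76% of the other genes. The genes raised by vitamin D and not lowered by IL-13 stood at 23.7% (19.9 to 27.9%). At CLCF1, UCA1, NSDHL, GLTP, PADI1, ADAMTSL5, FAM211B, CDC20 and SH3PXD2A an untreated summit lay within 1 kb of the start.

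Promoter sequences from RefSeq (GRCh38.p14) were at hand for 80 of the 111 genes, 77 by symbol and 3 by synonym, each from 250 bases before to 50 bases after the start. For 4 of them a VDR summit with vitamin D fell inside that window of the hg19 gene start: FAM211B, a leucine-rich repeat gene called LRRC75B in RefSeq, at fold enrichment 20.3 and 136 bases before the start, GLTP at 16.6 and 198 bases before, IL1B at 5.70 and 101 bases before, and CDC20 at 4.16 and 27 bases after. These 4 are printed for that summit, and CEACAM6 because it was the single described gene with a direct repeat of the VDR core. The CDC20 summit lies after the start and so outside the stretch printed. Whether the hg19 and RefSeq starts coincide was not tested. The core searched was AGGTCA on both strands, together with its variant AGTTCA, the related form GGGTCA and that form's own variant GGTTCA, and the direct repeat is a pair of cores with 3 bases between them. Capitals mark the matched letters, the 250 bases before the start are shown for the first 4, and all run 5′ to 3′ on the strand of the gene.
GLTP, chr12:109880542-109880791, minus strand: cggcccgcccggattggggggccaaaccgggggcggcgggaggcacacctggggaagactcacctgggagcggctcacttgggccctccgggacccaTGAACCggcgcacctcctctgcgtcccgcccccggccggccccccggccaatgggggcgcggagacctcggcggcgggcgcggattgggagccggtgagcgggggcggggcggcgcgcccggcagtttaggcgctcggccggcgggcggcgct
IL1B, chr2:112836780-112837029, minus strand: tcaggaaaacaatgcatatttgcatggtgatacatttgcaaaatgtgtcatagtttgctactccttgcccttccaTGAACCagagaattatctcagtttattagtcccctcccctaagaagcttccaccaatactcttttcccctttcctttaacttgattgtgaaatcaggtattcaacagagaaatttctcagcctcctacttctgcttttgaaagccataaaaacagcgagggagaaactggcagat
FAM211B, chr22:24593074-24593323, minus strand: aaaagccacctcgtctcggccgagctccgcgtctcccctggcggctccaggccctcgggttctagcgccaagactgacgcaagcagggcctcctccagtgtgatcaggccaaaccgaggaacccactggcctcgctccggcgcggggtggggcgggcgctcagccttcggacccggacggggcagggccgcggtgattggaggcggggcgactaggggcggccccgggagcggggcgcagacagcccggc
CDC20, chr1:43358731-43358980, plus strand: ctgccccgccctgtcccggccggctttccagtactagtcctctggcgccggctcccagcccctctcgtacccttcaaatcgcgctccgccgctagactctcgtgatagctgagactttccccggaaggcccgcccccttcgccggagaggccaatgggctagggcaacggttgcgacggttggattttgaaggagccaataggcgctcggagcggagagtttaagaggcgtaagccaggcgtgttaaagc
CEACAM6, chr19:41755460-41755514, plus strand: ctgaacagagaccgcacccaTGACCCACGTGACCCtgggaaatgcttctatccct

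The GLTP and IL1B promoters each held 1 core on the other strand, TGAACC, at 153 bases before the start in GLTP and at 175 bases before the start in IL1B. FAM211B and CDC20 held none of the 4 cores in the stretch shown. In CEACAM6 the repeat TGACCCACGTGACCC began 50 bases before the start, while its nearest VDR summit with vitamin D lay 19.3 kb after the hg19 start. Direct repeats of this kind stood in 1 of 80 described promoters and in 0.0781% of the 8967 other genes at 1 RPKM or more, so a single match carries little weight. At least 1 core was found in 42.5% of the described promoters, in 31.6% of those of the other genes and in 38.7% of all 27305 promoters in the table. The STAT-type palindrome TTCNNNNGAA was found in 9 of 80 (11.2%), against 4.37% of the other genes and 6.37% of all promoters. The AP-1 letters TGANTCA were found in 7.50%, against 4.68% of the other genes and 7.76% of all promoters. A match is a description of the letters and not a binding site.

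The combination of the agents was not used to choose the genes. Its RPKM was above the IL-13 level in 109 of the 111 genes, below the vitamin D level in 108 and between them in 106. The genes were picked as low with IL-13 and high with vitamin D, so nothing is read from these counts. HPCAL1 and LRRC26 were the pair below the IL-13 level, and HBEGF, AKR1C1 and CEACAM6 stood above the vitamin D level. Relative to untreated cells the median combination ratio was 1.01, with 23 genes at 1.3 or above, 18 at 0.77 or below and 70 between those limits. In the authors' deposited table of the combination against untreated, 34 of the 111 genes were higher at an adjusted p of 0.05 (30.6%, where 16.0% of all 15971 tested genes were called higher) and 30 were lower (27.03%, where 15.7% were called lower). Among the tested genes at 1 RPKM or more the background was 19.8% higher and 19.1% lower. With a change of at least 1.5-fold asked as well, 12 genes were higher and 8 lower, where 4.04% and 5.08% of all tested genes were. The median log2 change in the authors' deposited table was 0.01 over the described genes and 0.01 over all genes at 1 RPKM or more. This contrast shares the untreated libraries with the selection, so it is not independent of it.

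Adding IL-13 to vitamin D, in the authors' deposited table of the combination against vitamin D, gave 106 genes lower, where 16.9% of all 14859 tested genes were called lower, and 2 higher, where 16.4% were called higher. The vitamin D libraries were the ones in which the genes had been chosen as high, so nothing is read from the count. HBEGF and AKR1C1 were the 2 higher genes. CEACAM6, IRS1 and ARHGAP8 were called in neither direction, with adjusted p of 0.504, 0.311 and 0.439 in the authors' deposited table. The sum of the single log2 changes was set against the log2 change of the combination, all from the authors' deposited tables. The combination lay below the sum in 78 genes and above it in 33, with a median difference of -0.13, against -0.01 over all genes at 1 RPKM or more and -0.09 over the genes raised by vitamin D and not lowered by IL-13. From RPKM ratios, with 0.1 or 1 added to each RPKM, the median difference over the described genes was -0.092 or -0.0997. That form was not computed for the other sets. The combination and both single contrasts share the untreated libraries, and the difference from the sum was not tested.

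**Figure D3:**
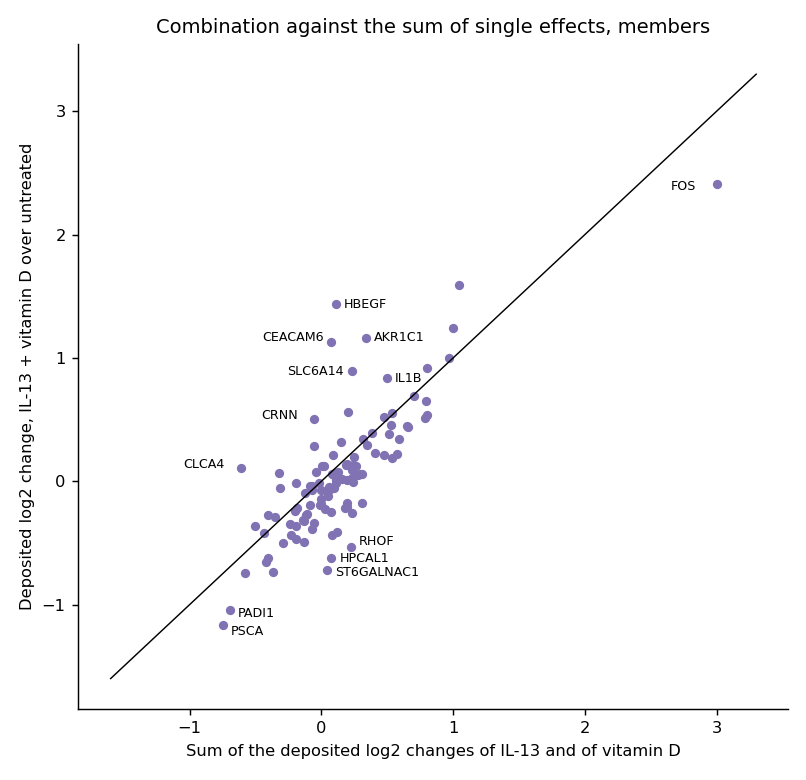
Each point is 1 of the 111 genes, with the sum of the deposited log2 changes of IL-13 and of vitamin D on the horizontal axis and the deposited log2 change of the combination over untreated on the vertical axis; the line marks equality. HBEGF (1.32 above the line), CEACAM6 (1.05) and AKR1C1 (0.83) stand farthest above it, and ST6GALNAC1 (-0.77), RHOF (-0.76) and HPCAL1 (-0.69) farthest below.

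With the combination, genes of squamous differentiation were found on both sides of the untreated level. PADI1, a peptidylarginine deiminase that citrullinates proteins of the upper epithelial layers (chromosome 1, 17531621 to 17572501, hg19), had 9.41 RPKM with IL-13, 45.0 RPKM with vitamin D, 12.8 RPKM with both and 26.7 RPKM untreated. With both, the log2 change of PADI1 in the authors' deposited table was -1.04 (SE 0.05, adjusted p = 8.14e-104). Its neighbour and family member PADI2 had 14.0 RPKM with IL-13, 32.2 RPKM with vitamin D, 17.3 RPKM with both and 21.9 RPKM untreated, a log2 change of -0.34 with both in the authors' deposited table (SE 0.05, adjusted p = 8.5e-10). With both agents PADI1 and PADI2 thus each lay between their IL-13 and untreated levels. CALML5, a calmodulin-like protein of differentiating keratinocytes, had 31.5 RPKM with IL-13, 103 RPKM with vitamin D, 38.6 RPKM with both and 65.6 RPKM untreated. CRCT1, a small cysteine-rich gene of the epidermal differentiation complex, had 69.6 RPKM with IL-13, 165 RPKM with vitamin D, 80.5 RPKM with both and 126 RPKM untreated. With both agents CALML5 changed by -0.74 and CRCT1 by -0.63 in the authors' deposited table (SE 0.08 and 0.07; adjusted p 9.18e-18 and 1e-17).

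CRNN, which encodes cornulin, a calcium-binding protein abundant in the esophagus and also located in the epidermal differentiation complex, took the other course. It had 27.2 RPKM with IL-13, 88.0 RPKM with vitamin D, 71.8 RPKM with both and 50.8 RPKM untreated. The level with both was nearer that with vitamin D than the untreated level. Against vitamin D alone it was still lower, with a log2 change of -0.33 in the authors' deposited table (adjusted p = 5.83e-12). With both CRNN rose by 0.50 in the authors' deposited table (SE 0.05, adjusted p = 3.01e-22), 0.56 more than the sum of its single changes. CLCA4, a chloride channel accessory gene of differentiated squamous cells, had 0.550 RPKM with IL-13, 2.62 RPKM with vitamin D, 1.73 RPKM with both and 1.59 RPKM untreated. The epithelial ETS factor gene ELF3 had 9.62 RPKM with IL-13, 22.3 RPKM with vitamin D, 14.8 RPKM with both and 15.3 RPKM untreated. Neither CLCA4 (0.10, SE 0.13, adjusted p = 0.605) nor ELF3 (-0.04, SE 0.06, adjusted p = 0.72) passed the test with both agents in the authors' deposited table. HR, the hairless corepressor gene whose protein binds VDR, had 43.6 RPKM with IL-13, 111 RPKM with vitamin D, 79.6 RPKM with both and 63.1 RPKM untreated, and rose by 0.34 with both in the authors' deposited table (SE 0.05, adjusted p = 3.31e-09). Over a wider list of 54 differentiation genes that includes 5 of the described ones, the authors' deposited table of the combination called 34 lower (62.96%) and 7 higher (12.96%), where 16.0% of all tested genes were higher and 15.7% lower, with a median log2 change of -0.36. With vitamin D alone 17 of 53 tested genes of that list were higher (32.1%) and 20 lower (37.7%), where 17.5% of all tested genes were higher and 15.1% lower, in the authors' deposited table. With IL-13 alone 8 were higher (15.1%) and 37 lower (69.8%), where 12.3% of all tested genes were higher and 14.0% lower, in the authors' deposited table. The 5 described genes on the list were chosen by these single contrasts, so the shares with either agent alone are not free of the selection.

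**Figure D4:**
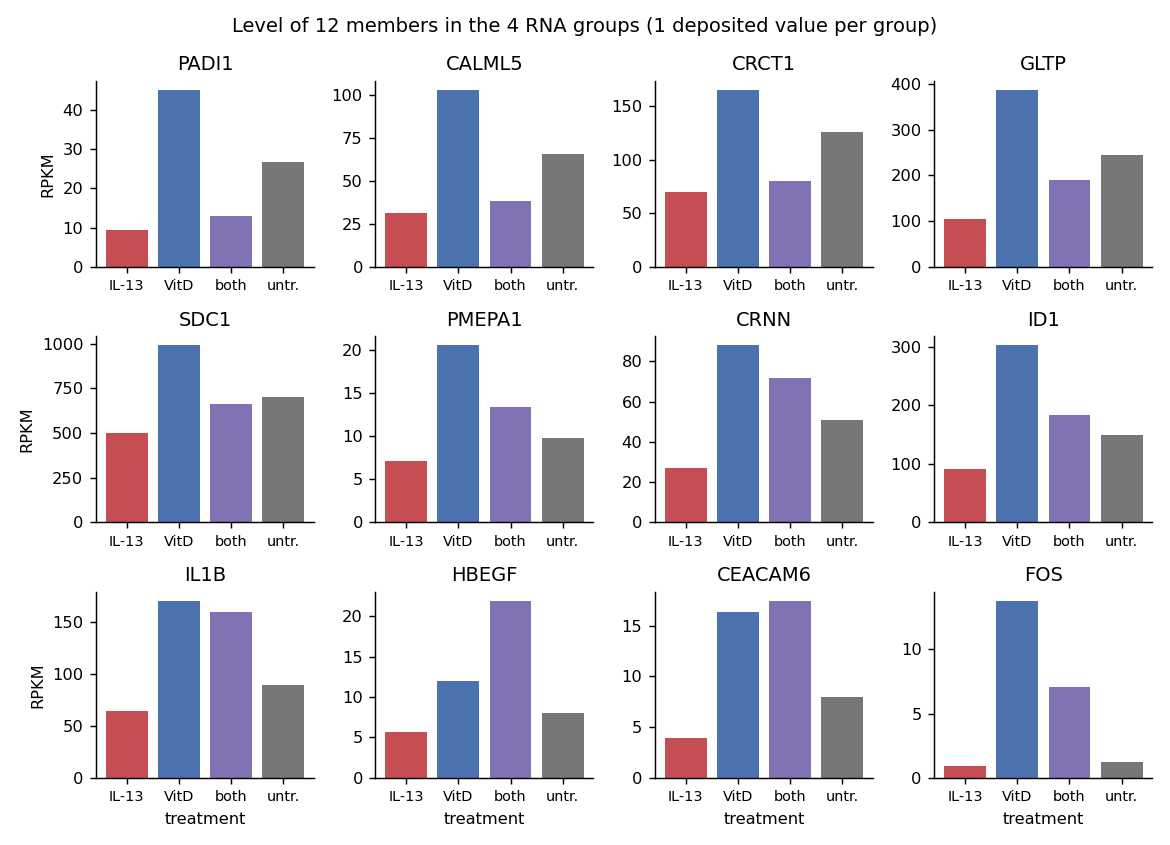
Bars give the deposited RPKM of 12 of the genes with IL-13, vitamin D (VitD), both agents (both) and untreated (untr.), 1 value per group and therefore no error bar, each panel on its own axis from 0. PADI1, CALML5 and CRCT1 with both stand near their IL-13 bar (12.8 against 9.41 RPKM for PADI1), whereas IL1B, CEACAM6 and HBEGF with both stand near or above their vitamin D bar (160 against 171 RPKM for IL1B).

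Some of the genes encode surface glycoproteins or enzymes that build glycans; the enzymes among them were picked for their role after their values were seen. PSCA, a lipid-anchored surface protein, had 1.34 RPKM with IL-13, 6.72 RPKM with vitamin D, 1.66 RPKM with both and 4.28 RPKM untreated, and its change of -1.17 with both was the lowest of all 111 genes in the authors' deposited table (SE 0.18, adjusted p = 2.36e-09). CEACAM6, a lipid-anchored adhesion molecule of the carcinoembryonic antigen family, had 3.91 RPKM with IL-13, 16.3 RPKM with vitamin D, 17.5 RPKM with both and 7.95 RPKM untreated, and rose by 1.13 with both in the authors' deposited table (SE 0.06, adjusted p = 8.48e-72). PSCA and CEACAM6, both low with IL-13 and high with vitamin D by selection, thus lay on opposite sides of the untreated level with the pair. FUT6 and FUT3, fucosyltransferases that make Lewis antigens, changed with both by -0.75 and -0.39 in the authors' deposited table (SE 0.13 and 0.08; adjusted p 1.4e-07 and 1.7e-05), to 1.19 RPKM against 2.07 RPKM untreated for FUT6 and to 7.48 RPKM against 9.97 RPKM untreated for FUT3. ST6GALNAC1, the sialyltransferase that makes the sialyl-Tn antigen, had 0.512 RPKM with IL-13, 2.32 RPKM with vitamin D, 0.653 RPKM with both and 1.14 RPKM untreated, a change of -0.72 with both in the authors' deposited table (SE 0.16, adjusted p = 4.57e-05). CHST11, a chondroitin sulfotransferase, had 6.36 RPKM with IL-13, 16.9 RPKM with vitamin D, 11.3 RPKM with both and 8.37 RPKM untreated, and rose by 0.44 with both in the authors' deposited table (SE 0.05, adjusted p = 8.06e-19). FUT3 and FUT6, like CEACAM6 and AKR1C1, have near-identical relatives among which reads may be divided, so their separate values are uncertain. In a list of 19 mucins and surface glycoproteins, PSCA and CEACAM6 included, the authors' deposited table called 11 lower (57.9%) and 3 higher (15.8%) with both agents, where 16.0% of all tested genes were higher and 15.7% lower.

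The most abundant of the 111 genes was SDC1, syndecan-1, a heparan sulfate proteoglycan of epithelial cell surfaces. It had 501 RPKM with IL-13, 992 RPKM with vitamin D, 666 RPKM with both and 701 RPKM untreated, and missed the threshold with both (-0.07 in the authors' deposited table, SE 0.05, adjusted p = 0.288). CLDN4, a tight junction claudin, had 44.2 RPKM with IL-13, 88.8 RPKM with vitamin D, 62.3 RPKM with both and 58.6 RPKM untreated and likewise missed the threshold (0.10 in the authors' deposited table, SE 0.07, adjusted p = 0.364). These abundant surface genes sat close to the untreated level when the agents were combined. MALL, a proteolipid of membrane rafts, had 24.7 RPKM with IL-13, 58.6 RPKM with vitamin D, 33.4 RPKM with both and 45.0 RPKM untreated, and fell by 0.42 with both in the authors' deposited table (SE 0.05, adjusted p = 2.68e-15). ZNF185, an actin-associated LIM-domain gene, had 90.1 RPKM with IL-13, 212 RPKM with vitamin D, 144 RPKM with both and 132 RPKM untreated, with a small rise of 0.13 in the authors' deposited table (SE 0.04, adjusted p = 0.00174).

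Some of the 111 genes act on lipids and were picked for that role after their values were seen; a list of 56 fatty acid, lipid and ceramide genes in the table held 1 of the 111, DEGS2. GLTP, which carries glycolipids such as glucosylceramide between membranes and whose promoter is printed above, had 105 RPKM with IL-13, 387 RPKM with vitamin D, 189 RPKM with both and 244 RPKM untreated (chromosome 12, 110288748 to 110318293, hg19). With both it fell by 0.36 in the authors' deposited table (SE 0.04, adjusted p = 2.28e-19). The sphingosine-1-phosphate exporter gene SPNS2 had 3.60 RPKM with IL-13, 11.3 RPKM with vitamin D, 4.73 RPKM with both and 7.56 RPKM untreated and fell by 0.65 with both in the authors' deposited table (SE 0.08, adjusted p = 3.34e-16). Sphingolipid genes did not all share that course. ACER2, a Golgi ceramidase, had 0.972 RPKM with IL-13, 2.96 RPKM with vitamin D, 2.50 RPKM with both and 1.297 RPKM untreated, and rose by 0.92 with both in the authors' deposited table (SE 0.11, adjusted p = 1.8e-15). DEGS2, the dihydroceramide hydroxylase that makes phytoceramide, had 3.75 RPKM with IL-13, 9.73 RPKM with vitamin D, 5.76 RPKM with both and 5.58 RPKM untreated and missed the threshold (0.05 in the authors' deposited table, SE 0.10, adjusted p = 0.766).

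ETNK2, which phosphorylates ethanolamine for phospholipid synthesis and carried the strongest VDR summit, had 7.40 RPKM with IL-13, 42.4 RPKM with vitamin D, 25.8 RPKM with both and 12.9 RPKM untreated. It rose by 1.00 with both in the authors' deposited table (SE 0.06, adjusted p = 1.65e-67), within 0.03 of the sum of its single changes. The cholesterol synthesis gene NSDHL, with a VDR summit of fold enrichment 23.5 at 97 bases after its start, had 37.1 RPKM with IL-13, 75.9 RPKM with vitamin D, 54.0 RPKM with both and 49.5 RPKM untreated, and a rise of 0.13 with both in the authors' deposited table (SE 0.04, adjusted p = 0.0133). It was the single described gene on a list of 22 cholesterol synthesis genes, of which the authors' deposited table called 13 lower (59.1%) and 3 higher (13.6%) with both, where 16.0% of all tested genes were higher and 15.7% lower. G0S2, an inhibitor of triglyceride breakdown and a known VDR target, had 26.3 RPKM with IL-13, 81.4 RPKM with vitamin D, 47.6 RPKM with both and 40.8 RPKM untreated. AKR1C1, an aldo-keto reductase that inactivates progesterone, had 9.03 RPKM with IL-13, 26.8 RPKM with vitamin D, 31.7 RPKM with both and 14.1 RPKM untreated, and rose by 1.16 with both in the authors' deposited table (SE 0.06, adjusted p = 4.95e-79). AKR1C1 exceeded the sum of its single changes by 0.83, whereas G0S2 stayed 0.18 short of it.

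Cytokines, growth factors and their receptors were also found on both sides of the untreated level. IL1B, the gene of the inflammatory cytokine interleukin-1 beta whose promoter is printed above, had 64.9 RPKM with IL-13, 171 RPKM with vitamin D, 160 RPKM with both and 89.8 RPKM untreated (chromosome 2, 113587337 to 113594356, hg19). Its rise with both was 0.83 in the authors' deposited table (SE 0.04, adjusted p = 9.14e-87). HBEGF, the EGF receptor ligand that serves as the diphtheria toxin receptor, had 5.64 RPKM with IL-13, 12.0 RPKM with vitamin D, 21.9 RPKM with both and 8.05 RPKM untreated, so the pair of agents gave a higher level than either alone. Its rise of 1.44 with both in the authors' deposited table (SE 0.06, adjusted p = 1.82e-127) exceeded the sum of the single changes by 1.32, the largest such excess of the 111. CLCF1 had 1.28 RPKM with IL-13, 4.69 RPKM with vitamin D, 3.08 RPKM with both and 2.09 RPKM untreated, and PTAFR, the platelet-activating factor receptor, had 1.23 RPKM with IL-13, 5.04 RPKM with vitamin D, 4.29 RPKM with both and 1.78 RPKM untreated. Both genes were higher with the pair, by 0.55 for CLCF1 and 1.24 for PTAFR in the authors' deposited table (SE 0.11 and 0.08; adjusted p 7.21e-06 and 1.33e-47). CCBP2, a decoy receptor that removes CC chemokines, fell instead, by 0.33 in the authors' deposited table (SE 0.12, adjusted p = 0.0307), to 1.22 RPKM with both against 1.55 RPKM untreated. A list of 47 tested cytokine and receptor genes had 11 higher (23.4%) and 18 lower (38.3%) with both in the authors' deposited table, and a list of 13 EGF receptor family genes had 3 higher (23.1%) and 8 lower (61.5%), where 16.0% of all tested genes were higher and 15.7% lower.

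Genes of TGF-beta and BMP signalling were also among the 111. ID1, an inhibitor of basic helix-loop-helix factors and a BMP target, had 91.7 RPKM with IL-13, 303 RPKM with vitamin D, 183 RPKM with both and 150 RPKM untreated. PMEPA1, a TGF-beta induced gene that restrains the pathway, had 7.15 RPKM with IL-13, 20.6 RPKM with vitamin D, 13.4 RPKM with both and 9.82 RPKM untreated. With both agents ID1 rose by 0.29 and PMEPA1 was higher by 0.45 in the authors' deposited table (SE 0.05 each; adjusted p 6.12e-07 and 3.43e-16). ID1 had a VDR summit at 431 bases after its start and also a STAT6 summit with IL-13 at 1821 bases after its start. Of 31 TGF-beta signalling genes in all, 12 were higher (38.7%) and 7 lower (22.6%) with both in the authors' deposited table, where 16.0% of all tested genes were higher and 15.7% lower. With vitamin D 17 were higher (54.8%) and 7 lower (22.6%) in the authors' deposited table, where 17.5% of all tested genes were higher and 15.1% lower. The list includes 3 of the described genes, which were chosen as high with vitamin D, so that share is not free of the selection.

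FOS, the AP-1 subunit of the immediate early response, was the most extreme of the 111 genes with vitamin D. It had 0.913 RPKM with IL-13, 13.8 RPKM with vitamin D, 7.04 RPKM with both and 1.24 RPKM untreated, and rose by 2.41 with both in the authors' deposited table (SE 0.10, adjusted p = 4.93e-121). Its nearest VDR summit with vitamin D lay 23.3 kb before the start, outside the 20 kb window. DUSP4, a phosphatase that switches off MAP kinases, had 1.84 RPKM with IL-13, 5.07 RPKM with vitamin D, 3.16 RPKM with both and 3.03 RPKM untreated and missed the threshold (0.06 in the authors' deposited table, SE 0.07, adjusted p = 0.569). RHOF, a small GTPase of filopodia, had 0.77 RPKM with IL-13, 6.07 RPKM with vitamin D, 1.43 RPKM with both and 2.15 RPKM untreated, and fell by 0.54 with both in the authors' deposited table (SE 0.14, adjusted p = 0.000812). RHOF thus had one of the highest vitamin D ratios, 2.83, and stood below the untreated level with both. IRS1, an adaptor of insulin and IL-4 receptor signalling, had 3.38 RPKM with IL-13, 7.04 RPKM with vitamin D, 6.82 RPKM with both and 4.61 RPKM untreated and rose by 0.56 with both in the authors' deposited table (SE 0.06, adjusted p = 6.49e-21). In the authors' deposited table of the combination, a list of 45 tested immediate early and stress genes had 18 higher (40.0%) and 16 lower (35.6%), and a list of 22 MAP kinase regulators had 4 higher (18.2%) and 8 lower (36.4%), where 16.0% of all tested genes were higher and 15.7% lower.

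Transporters and metabolic genes were also among the 111. ATP2B4, a plasma membrane calcium pump, had 33.0 RPKM with IL-13, 70.6 RPKM with vitamin D, 41.7 RPKM with both and 53.2 RPKM untreated, and fell by 0.35 with both in the authors' deposited table (SE 0.04, adjusted p = 5.18e-16). CA12, a membrane carbonic anhydrase, had 26.4 RPKM with IL-13, 78.3 RPKM with vitamin D, 43.4 RPKM with both and 43.2 RPKM untreated, and missed the threshold with both (0.01 in the authors' deposited table, SE 0.04, adjusted p = 0.867). SLC6A14, a broad amino acid transporter, had 0.836 RPKM with IL-13, 6.65 RPKM with vitamin D, 4.34 RPKM with both and 2.30 RPKM untreated, and rose by 0.89 in the authors' deposited table (SE 0.09, adjusted p = 2e-21). SLC16A3, which exports lactate, and HK2, the first enzyme of glycolysis, had 74.9 and 25.5 RPKM with both against 74.0 and 26.3 RPKM untreated. Neither SLC16A3 (adjusted p = 0.839) nor HK2 (adjusted p = 0.485) passed the test with both in the authors' deposited table. Noncoding RNAs were present too: UCA1 had 5.62 RPKM with IL-13, 16.2 RPKM with vitamin D, 11.6 RPKM with both and 7.35 RPKM untreated and a VDR summit of fold enrichment 22.3 at 15 bases before its start, and rose by 0.65 with both in the authors' deposited table (SE 0.06, adjusted p = 1.18e-22). Among the 111 genes, 14 overlap another annotated gene, 8 of them one on the opposite strand, RHOF and CLCF1 included, and how shared reads were counted is unknown.

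Binding near the genes was also read by their combination class. A VDR summit with vitamin D lay within 20 kb of 9 of the 18 genes at or below 0.77 with both, of 52 of the 70 between the limits and of 16 of the 23 at or above 1.3. The median distance was 20.3 kb in the lowest class, 5.49 kb in the middle class and 6.70 kb in the highest. These classes were drawn from the RNA values, are small and were not tested. C12orf36 and FOS, with the highest vitamin D ratios, had their nearest summits at 128 kb and 23.3 kb. ETNK2 carried the strongest summit described above. Its log2 change with vitamin D was 1.76 in the authors' deposited table, against 1.78 for C12orf36. A link between ratio and distance was not tested.

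H3K27ac and H3K4me3 at the promoters, 1 kb to either side of the start, leaned, after centring, the way of the RNA with the single agents. Each value is the highest summit fold enrichment, as the log2 of treated over untreated minus the median of all genes at 1 RPKM or more. For H3K27ac, a mark of active promoters and enhancers, the median over the described genes was -0.19 for IL-13 (75 genes), 0.12 for vitamin D (82 genes) and -0.03 for the pair (77 genes), around a median of 0 for all genes by construction. The median removed, that of all genes, was -0.51 for IL-13, -0.33 for vitamin D and -0.49 for the pair. With IL-13, 58 of the 75 lay below 0 and 16 above, and with vitamin D 52 of 82 lay above and 30 below. The genes lowered by IL-13 and not raised by vitamin D had -0.12 with IL-13 and 0.01 with vitamin D. The genes raised by vitamin D and not lowered by IL-13 had -0.03 with IL-13 and 0.15 with vitamin D. H3K4me3, a mark of active starts, gave -0.07 for IL-13, 0.09 for vitamin D and -0.03 for the pair over the described genes. H3K9ac, another mark of active starts, gave 0 for IL-13, 0.14 for vitamin D and 0.10 for the pair. With 1 library per condition these medians have no replicate error and no test, and they are smaller than the interquartile range over the described genes.

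**Figure D5:**
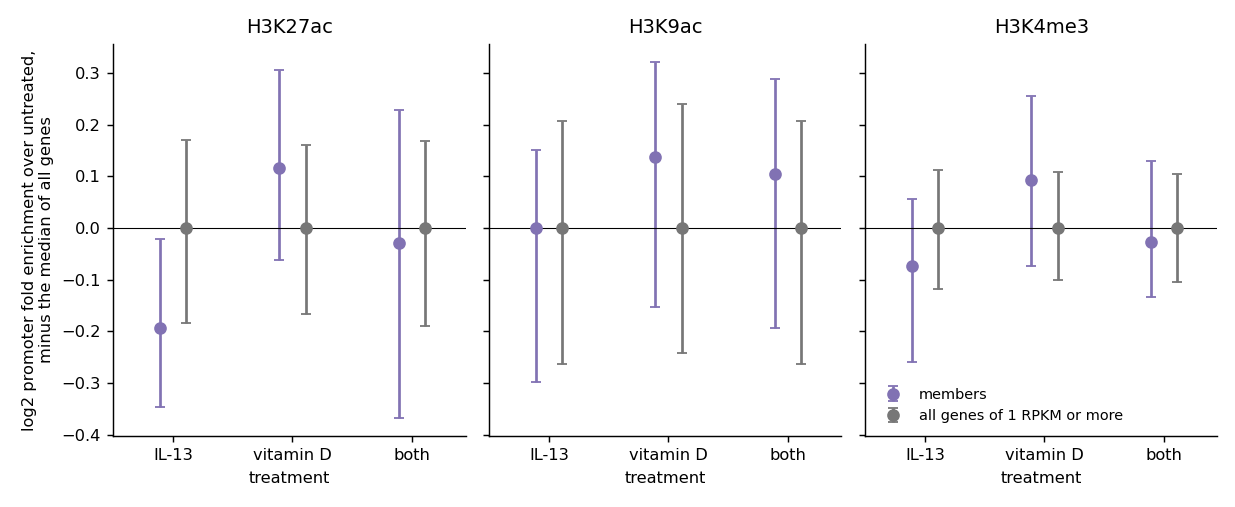
Points are medians and bars the 25th to 75th percentiles of the log2 promoter fold enrichment over untreated, minus the median of all genes, for H3K27ac, H3K9ac and H3K4me3 with IL-13, vitamin D and both, over the members and over all genes of 1 RPKM or more. The H3K27ac median of the members is -0.19 for IL-13, 0.12 for vitamin D and -0.03 for the pair, and the bars overlap those of all genes throughout.

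Among single promoters, CDA, which encodes cytidine deaminase, had an H3K27ac fold enrichment of 5.95 with IL-13, 13.3 with vitamin D, 7.67 with both and 13.3 untreated, by the authors' peak caller and without centring. RAC2, a small GTPase gene, had 10.6 with IL-13, 23.7 with vitamin D, 16.6 with both and 20.9 untreated. PADI1 had promoter summits of 10.4 with vitamin D and 7.51 untreated and none with IL-13 or with both, where its RNA was lowest. SDC1 had an enrichment, before any centring, of 23.8 with IL-13, 24.3 with vitamin D, 23.6 with both and 24.2 untreated, while its RNA with vitamin D was 1.41 times the untreated level. Minus the median of all genes, its log2 H3K27ac change was 0.48 for IL-13, 0.33 for vitamin D and 0.45 for the pair. These promoters were picked for illustration after their values were seen. H3K27ac summits were called at the promoters of 75 genes with IL-13, 85 with vitamin D, 78 with both and 88 untreated, 67.6% to 79.3% of the 111, against 89.3% to 91.8% of all genes at 1 RPKM or more. The untreated H3K27ac library held 227905 summits and the treated ones between 126751 and 145395, and the part of that difference in the promoter values was not tested.

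At the VDR summits themselves, 167 lay within 20 kb of a described gene. Their H3K27ac, as the log2 of treated over untreated without centring, had a median of -0.71 for IL-13, -0.12 for vitamin D and -0.46 for the pair. At 3412 VDR summits near other genes at 1 RPKM or more the medians were -0.55 for IL-13, -0.22 for vitamin D and -0.42 for the pair. Over all 11515 VDR summits they were -0.57 for IL-13, -0.15 for vitamin D and -0.39 for the pair. These values come from 1 library each and were not tested. This reading of VDR summits and the 3 comparison sets of genes were added after the data had been seen.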

How the data were processed

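RNA was measured in 12 samples (3 in each of 4 groups) and chromatin in 16 ChIP libraries (1 per condition). Trim Galore, STAR, SAMtools, Bowtie, MACS2, hg19 and GRCh37 are named in the submitters' processing notes; what each did, and its version and settings, is not stated there. The authors deposited RPKM values, 1 per group, with log2 fold changes, p-values and adjusted p-values per gene, from a test that no source used here names. An adjusted p of 1 was treated as not tested. The table whose name sets IL-13 beside the pair of agents holds vitamin D beside the pair, per the file headers: its fold changes correlated at 0.995 with that RPKM ratio and at -0.00999 with the other. Peak lists give summit pileup, a signal, and fold enrichment and -log10 q from the authors' peak caller; the deposited -log10 q served only as an alternative limit. Depth is unknown for RNA.

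Ratios of RPKM chose the genes. The SE of a log2 change is its size divided by the normal quantile of its deposited p, an upper bound where p is listed as 0. Distances were taken from hg19 starts in the deposited tables, with ZFP57, placed on an alternative haplotype, counted as having no summit. Analyses used Python 3.11.15, pandas 2.3.3 and scipy 1.17.1, and were tested on simulated data. The genes and lists were chosen with earlier results of these data known. Named genes are the 10 with the highest untreated RPKM, the 6 at each end of the combination, the 6 with the lowest IL-13 and the 6 with the highest vitamin D ratio, those on the gene lists and those with a VDR or STAT6 summit within 5 kb; others were named for their role after their values were seen. Alternatives were other limits, windows and pseudocounts. Values of some of the 111 genes are not reported here by name.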

Additional observations from a re-analysis of the deposited data

Results flagged for a closer look

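The effect of IL-13 differed in sign with and without vitamin D for 3 of the 111 genes, and for 2 of them it was called in both tables. The share over all genes was not computed, and the genes were chosen as low with IL-13 and high with vitamin D. Nothing is read from these counts. For AKR1C1 the log2 change with IL-13 was -0.6343 without vitamin D and 0.1999 with it, in the authors' deposited tables. For HBEGF it was -0.5114 without vitamin D and 0.817 with it, in the authors' deposited tables. These changes each passed an adjusted p of 0.05 in their own table. For CEACAM6, the third gene, it was -1.01 without vitamin D and 0.05 with it (adjusted p = 0.504 for the second), in the authors' deposited tables. The difference between the effects was not tested for any of the 3, because the change without vitamin D was used to choose the genes.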

How the results depend on the processing

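Of 51 alternatives, 36 stayed within the limits set and 15 did not. The limits were a count within 1.5 times, a share inside the exact 95% interval of the main setting, and a median within 0.1 log2. Ratio limits of 0.67 and 1.5 left 35 genes, of which 15 were higher and 10 lower with the combination. An untreated floor of 5 RPKM left 61 genes, 22 higher and 17 lower. By the same calls 16.0% of all tested genes were higher and 15.7% lower, and no share was computed over all genes at the 5 RPKM floor. Asking also for 1.5-fold left 12 higher (10.8%) and 8 lower (7.21%) of the 111. By that rule 4.04% of all tested genes were higher and 5.08% lower. A VDR summit lay within 5 kb of 40.5% of the genes (other genes 13.2%) and within 100 kb of 94.6% (other genes 60.8%). With -log10 q of at least 10 one lay within 20 kb of 43.2% (other genes 10.9%). For the genes raised by vitamin D and not lowered by IL-13 these shares were 37.4%, 91.1% and 42.2%. For STAT6, 34.2% lay within 100 kb (other genes 24.9%), and 0.901% within 20 kb with -log10 q of at least 10 (other genes 2.57%). The H3K9ac median with vitamin D was 0.0084 with -log10 q of at least 10 (10 genes) and that with both was 0 with a window of 2 kb. The cause of these shifts was not tested beyond the narrower or wider limits themselves. No paired analysis was possible because the deposited RNA tables used here give 1 value per group, and for the same reason no sample could be left out. Levels under 5 RPKM, 50 of the genes, rest on a number of reads that is unknown.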
